A study of Mus musculus with 8 samples.

Results

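The collagen chains are the 44 protein-coding genes of the deposited count table whose symbol is Col, a number, the letter a and a number, out of 31894 genes with an identifier. They were divided into 11 fibrillar chains, 6 type IV chains of the basement membrane and 27 other chains. Their mRNA was compared between E-cadHI and E-cadLO tumor cells, 2 populations that were sorted side by side from breast cancer brain metastases (BCBM) of 4 mice, numbered 57, 58, 67 and 70 in the labels. The comparison asks how tumor cells without the E-cadherin reporter, read by the study as cells in a mesenchymal state, differ from those that still carry it. Each population was sequenced once per mouse, which gave 8 bulk mRNA libraries and n = 4 in each group. The 4 mice are separate animals, and the 2 libraries of a mouse share an animal.

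All 8 libraries came from brain metastasis tumors of mice of strain FVB whose genotype is labelled wild type, and no age is labelled. The tumors grew after intracranial injection of organoids that descend from PyMT E-cad-mCFP mammary tumors by serial passage through mouse brains. In the PyMT model the mouse mammary tumor virus promoter drives the polyoma middle T oncogene in mammary epithelium, and in the reporter a cyan fluorescent protein (CFP) is fused to E-cadherin. Both populations in every mouse therefore share the oncogene, the reporter and the origin of the graft, and host brain cells lack the reporter. The purity of the sort was checked by the study on CFP-positive cells, since CFP-negative cells were too few.

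Library totals ranged from 9102781 to 15769200 counts. Levels are given as CPM (counts per 1000000 counts of the library) after scaling by the trimmed mean of M values (TMM), and 3 counts, taken as the floor, correspond to 0.202 to 0.349 CPM. Cdh1, which encodes E-cadherin, measured 114, 132, 93.5 and 108 CPM in the E-cadHI libraries of mice 57, 58, 67 and 70, and 71.6, 182, 84.5 and 59.2 CPM in the E-cadLO libraries in the same order. The library labelled E-cadLO of mouse 58 thus held more Cdh1 mRNA than any E-cadHI library, and values without mouse 58 or without this library are given beside some of the chains with the most counts. Lists of 8 markers each gave summed levels of 7360 to 10110 CPM (E-cadHI) and 5463 to 13910 CPM (E-cadLO) for epithelial tumor cells, 11.5 to 118 CPM and 56.7 to 431 CPM for microglia and macrophages, and 556 to 8631 CPM and 1319 to 34610 CPM for oligodendrocytes. Within each mouse the E-cadLO sum was the higher for microglia and macrophages and for oligodendrocytes. It was also the higher in each mouse for neurons (4.04 to 92.9 CPM and 24.9 to 370 CPM). Astrocyte markers summed to 1150 to 3566 CPM and 729 to 9853 CPM, lower in E-cadLO cells of mouse 57 and higher in those of mice 58, 67 and 70. The lower sum in mouse 57 followed Aldoc, at 1005 CPM in E-cadHI and 124 CPM in E-cadLO cells. Of the 8 astrocyte markers, 6 were higher in E-cadLO cells of that mouse. In bulk samples fewer cells of a type and less RNA per cell cannot be told apart, and the part of host cells in the values below was not tested.

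Collagens are secreted or membrane proteins in which 3 alpha chains wind into a triple helix. Fibrillar collagens form the tensile fibers of connective tissue and are mostly made by fibroblasts, whereas type IV collagens form the sheet of the basement membrane under epithelia and around vessels. Other chains decorate fibrils (the fibril-associated, or FACIT, collagens), form beaded filaments (type VI) or short-chain networks (types VIII and X), carry fragments such as endostatin (type XVIII) or span the plasma membrane. The healthy brain parenchyma holds little fibrillar collagen, which lies mainly in the meninges and around larger vessels.

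Collagen mRNA was a small part of these libraries. In E-cadHI cells the 44 chains took 0.0380%, 0.0533%, 0.0456% and 0.0420% of all counts in mice 57, 58, 67 and 70. In E-cadLO cells they took 0.315% in mouse 57 and 0.0506%, 0.0381% and 0.0262% in mice 58, 67 and 70. The share of mouse 57 stood far above the other 7, which spanned 0.0262% to 0.0533%. Every chain reached 3 counts in some library, 18 chains did so in all 8 libraries, and 5 chains had fewer than 10 counts in each of them. The number of chains at 0 was 17 in the E-cadHI library of mouse 57 and between 0 and 9 in the other 7 libraries.

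6 chains made up most of the collagen mRNA, namely the FACIT chains Col9a1, Col9a3 and Col16a1, the type IV chains Col4a5 and Col4a6, and the fibrillar chain Col11a1. Together they held 93.7%, 89.4%, 95.0% and 91.0% of collagen counts in the E-cadHI libraries of mice 57, 58, 67 and 70. The same 6 chains held 91.3%, 81.8% and 76.5% in the E-cadLO libraries of mice 58, 67 and 70, and 8.99% in that of mouse 57. These 6 were chosen after the counts were seen. The library labelled E-cadLO of mouse 57 therefore had a different collagen make-up, with Col6a1, Col1a1 and Col18a1 as its highest chains per kilobase of exon (113, 75.8 and 51.9 CPM per kb). Per kilobase Col9a1 led in 6 of the other 7 libraries, and in the E-cadLO library of mouse 58 Col9a3 stood at 27.7 and Col9a1 at 25.3 CPM per kb.

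Different chains were compared in E-cadHI cells by their level per kilobase of exon. Col9a1, one of the 3 chains of type IX collagen, was the most abundant in E-cadHI cells at 30.6 ± 2.64 CPM per kb (SD, n = 4). Col9a3 followed at 15.4 ± 2.77 CPM per kb, and its 4 values, 12.5 to 19.1, lay below the 27.1 to 33.2 of Col9a1. Col4a5 (9.60 ± 1.65), Col16a1 (9.46 ± 2.14) and Col4a6 (6.81 ± 1.51 CPM per kb) came next, and the ranges of these 3 chains over the 4 libraries overlapped. Col11a1 measured 1.76 ± 0.431 CPM per kb, and the remaining 38 chains each had a mean below 1, led by Col9a2 at 0.866 ± 0.519 CPM per kb. Using the longest coding transcript as the length exchanged Col4a5 and Col16a1 and left the other 4 of the leading 6 in place.

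**Figure D1:**
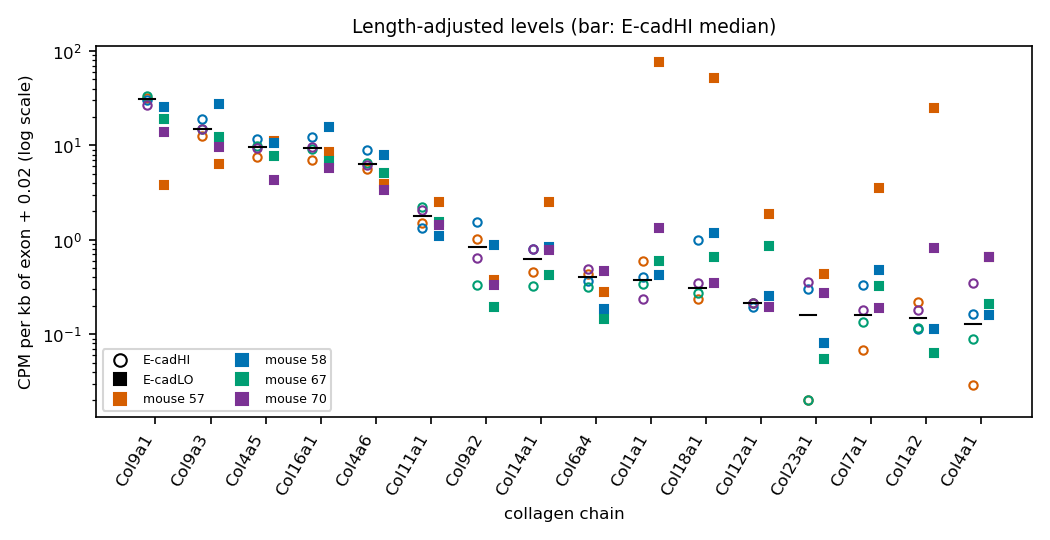
Level per kilobase of exon (CPM per kb plus 0.02, log axis) of the 16 chains with the highest E-cadHI median, with open circles for E-cadHI libraries, filled squares for E-cadLO libraries, a color for each mouse and a bar at the E-cadHI median. Col9a1 stands highest in E-cadHI cells, and the E-cadLO library of mouse 57 lies at 75.8 CPM per kb for Col1a1 and 51.9 for Col18a1.

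No collagen chain passed the test between E-cadLO and E-cadHI cells. Of the 44 chains, 25 had enough counts to be tested (6 fibrillar, 5 type IV and 14 other). With the quasi-likelihood test of edgeR and p values adjusted by Benjamini-Hochberg over 13598 genes, 0 chains were called higher and 0 lower at an adjusted p of 0.05, against 0% of all genes in each direction, and the smallest adjusted p was 0.282. At an unadjusted p under 0.05, 8 chains were higher (background 8.16%) and 0 lower (background 5.81%). Some of the higher chains, such as Col4a2 and Col8a1, passed the count filter mainly through E-cadLO cells, so their number supports no call. With the mouse as a block 0 chains were called either way (background 0.728% higher and 0% lower), the smallest adjusted p was 0.196, and at an unadjusted p under 0.05 there were 1 higher and 2 lower (background 12.3% and 7.33%). The blocked fit without mouse 57, chosen after the values were seen, also called 0 chains either way (background 3.06% and 0.173%).

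DESeq2 gave calls where edgeR gave none. Without the block it called Col5a2 (log2 fold change 4.05, adjusted p = 0.0218) and Col7a1 (2.86, adjusted p = 0.0409) higher in E-cadLO cells among the 24 chains it gave an adjusted p, with backgrounds of 2.47% higher and 0.263% lower. DESeq2 gave no p value in this fit for Col1a1, Col1a2, Col2a1, Col3a1, Col5a1, Col6a1, Col6a2, Col8a1, Col8a2 and Col18a1, which it thus did not test. With the block it called Col4a2 (2.92, adjusted p = 0.0307) and Col5a2 (3.28, adjusted p = 0.0475) higher and Col9a1 (-1.21, adjusted p = 0.0297) lower among 33 chains, with backgrounds of 6.72% and 1.34%. Col5a2 was the chain called in both DESeq2 fits, and it had too few counts for the edgeR filter. The E-cadLO library of mouse 57 held 66.8% of the Col5a2 counts and 71.0% of the Col7a1 counts. When DESeq2 was run without mouse 57, which was chosen after the values were seen, the adjusted p was 0.596 for Col5a2 and 0.897 for Col7a1, and no chain was called higher. With the block and without that mouse the adjusted p was 0.524 for Col5a2, 0.157 for Col4a2 and 0.0171 for Col9a1 (log2 fold change -0.68). Col9a1 was not called in this blocked fit without mouse 67 (adjusted p = 0.0872) or without mouse 70 (0.0527), nor was Col4a2 (0.264 and 0.0906).

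The direction in a mouse was read from its log2 ratio, E-cadLO over E-cadHI, on CPM plus 0.5. Among the 25 tested chains, 6 were higher in E-cadLO cells of all 4 mice (Col1a1, Col4a2, Col6a3, Col7a1, Col18a1 and Col20a1), where 16.8% of all tested genes did so. Of the 25 chains, 17 had a fitted log2 fold change above 0 (background 55.1%). In turn 4 were lower in all 4 mice (Col4a6, Col6a4, Col9a1 and Col9a2), where the background was 14.2%. The groups did not overlap for Col4a2 and Col6a3, which were higher (background 3.9%), and for Col9a1, which was lower (background 4.2%). In E-cadHI cells Col4a2 had at most 13 counts and Col6a3 at most 11. Both passed the count filter mainly through E-cadLO cells, so their separation supports no call. By mouse, 20 of the 25 chains were higher in E-cadLO cells in mouse 57 (background 50.8%), 12 in mouse 58 (50.1%), 16 in mouse 67 (50.9%) and 12 in mouse 70 (55.3%).

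**Figure D2:**
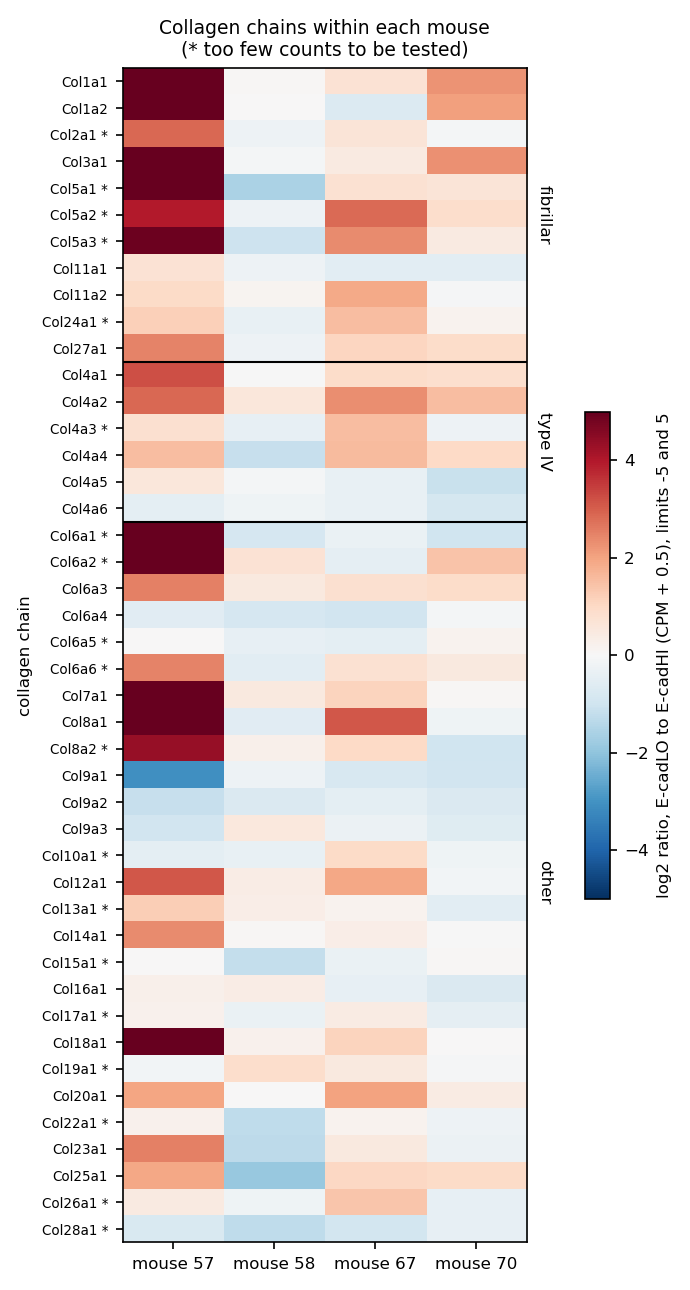
Log2 ratio of E-cadLO to E-cadHI (CPM plus 0.5, color limits at -5 and 5) for each of the 44 chains (rows, by class) in each of the 4 mice (columns), with an asterisk on the 19 chains that were not tested. The mouse 57 column holds the strongest positive ratios, and Col9a1 is negative in all 4 columns.

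The fibrillar chains had higher levels in E-cadLO cells mainly in 1 library, that of mouse 57. Col1a1 and Col1a2 encode the chains of type I collagen and Col3a1 that of type III, the main collagens of fibrous tissue. Col1a1 (chr11:94936224-94953042, ENSMUSG00000001506, GRCm38) measured 3.76, 2.54, 2.08 and 1.41 CPM in E-cadHI cells of mice 57, 58, 67 and 70, and 497, 2.67, 3.77 and 8.53 CPM in E-cadLO cells. Col1a2 measured 2.51, 1.15, 1.19 and 2.02 CPM against 311, 1.16, 0.538 and 9.99 CPM. For Col3a1 the values were 0.627, 0.768, 1.19 and 0.702 CPM against 180, 0.698, 1.82 and 5.31 CPM. All 3 chains were high in the E-cadLO library of mouse 57, moderately high in that of mouse 70, and within or near the E-cadHI range in mice 58 and 67.

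The fitted log2 fold change of Col1a1 was 5.70 (SE 1.74, edgeR adjusted p = 0.282), of which 1.27 was left without mouse 57. Col1a2 gave 5.55 (SE 1.82, adjusted p = 0.298) and 1.38 without that mouse, and Col3a1 5.82 (SE 1.71, adjusted p = 0.282) and 1.51. The E-cadLO library of mouse 57 held 95.3% of all Col1a1 counts in the series, 94.3% of Col1a2 and 94.1% of Col3a1. Within mice 58, 67 and 70 the Col1a1 log2 ratios were 0.06, 0.73 and 2.24, and those of Col1a2 were 0.01, -0.70 and 2.06.

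The type V chains, which set the diameter of type I fibrils, were sparse outside that library. Col5a1 reached 40.8 CPM in the E-cadLO library of mouse 57 and 0 to 1.69 CPM in the others. Col5a2 measured 11.8, 0.116, 3.03 and 1.40 CPM in E-cadLO cells and 0.279, 0.231, 0 and 0.527 CPM in E-cadHI cells, so that mice 57, 67 and 70 had more of it in E-cadLO cells and mouse 58 less. Col5a3 showed the same order of mice, with log2 ratios of 4.91, -1.03, 2.35 and 0.43. Col2a1, the chain of cartilage collagen, had 50 counts in the E-cadLO library of mouse 57 and at most 6 elsewhere.

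Col11a1, a chain of type XI collagen that is found inside fibrils of cartilage and in many tumors, was the fibrillar chain with the highest level per kilobase in each of the other 7 libraries. It measured 18.8, 16.8, 27.9 and 26.4 CPM in E-cadHI cells and 31.6, 13.8, 19.4 and 18.1 CPM in E-cadLO cells, and the groups overlapped. Its log2 fold change was -0.11 (SE 0.30, adjusted p = 0.868). Of the other fibrillar chains, Col27a1 (1.03, SE 0.78) and Col11a2 (1.15, SE 0.60) did not pass the test, with adjusted p values of 0.534 and 0.408 in edgeR. Col24a1 had at most 21 counts in any library and was not tested.

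Across the 6 fibrillar chains tested the median log2 fold change was 3.35, against 0.06 over all genes. It was 1.94 with the mouse block, 1.16 without mouse 57 and 1.06 without its E-cadLO library alone. The summed fibrillar level was 26.8, 29.0, 33.5 and 34.0 CPM in E-cadHI cells and 1097, 23.0, 37.2 and 48.5 CPM in E-cadLO cells. A chain that passes the count filter through 1 group only must differ, so these medians describe the tested chains and support no call.

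**Figure D3:**
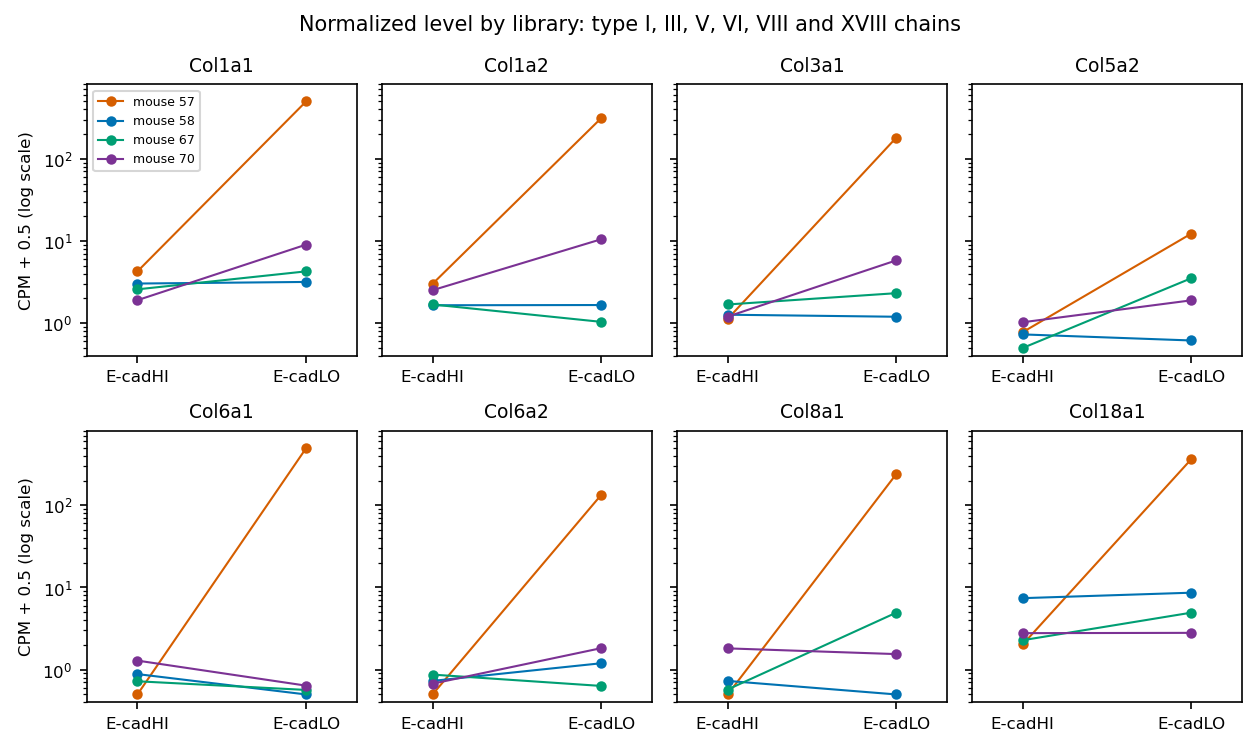
Normalized level (CPM plus 0.5, log axis) of 8 chains in the E-cadHI and E-cadLO library of each mouse, with a line joining the 2 libraries of a mouse. In each panel the E-cadLO library of mouse 57 is the highest of the 8, at 497 CPM for Col1a1 and 493 CPM for Col6a1, and the other 3 mice differ in direction in most panels.

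The excess of collagen mRNA in the E-cadLO library of mouse 57 reached across classes. With CPM plus 0.5, 8 chains were at least 10 times higher there than in every other library (Col1a1, Col1a2, Col3a1, Col5a1, Col6a1, Col6a2, Col8a1 and Col18a1). These are 20.5% of the 39 chains with 10 counts in some library, whereas 0.493% of 17033 genes with as many counts did so. The 10-fold rule was chosen after the values were seen.

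Type VI collagen, which forms beaded filaments near basement membranes, was represented mostly by counts of that library. Col6a1 (chr10:76708792-76726168) measured 0, 0.384, 0.223 and 0.790 CPM in E-cadHI cells of mice 57, 58, 67 and 70, and 493, 0, 0.0673 and 0.140 CPM in E-cadLO cells. It had 6638 counts in the E-cadLO library of mouse 57 and 0 to 9 counts in each other library, so that the former held 99.7% of its counts. Col6a2 had 1792 counts there (133 CPM) and at most 19 counts elsewhere. Col6a3, whose chain joins the other two in the type VI trimer, had 32 counts there (2.38 CPM), a ratio to Col6a2 of 0.0124 per kb. Col6a3 measured 0, 0.845, 0.446 and 0.615 CPM in E-cadHI cells and 2.38, 1.40, 1.14 and 1.61 CPM in E-cadLO cells, so that its groups did not overlap although it did not pass the test (log2 fold change 1.77, SE 0.86, adjusted p = 0.384). It passed the count filter mainly through E-cadLO cells. Col6a4, by contrast, was lower in E-cadLO cells of all 4 mice, with log2 ratios of -0.57, -0.85, -0.94 and -0.09 and overlapping groups.

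Col8a1, a short-chain collagen of vessel walls, measured 0, 0.231, 0.0743 and 1.32 CPM in E-cadHI cells and 239, 0, 4.44 and 1.05 CPM in E-cadLO cells. Its log2 fold change was 7.29 (SE 2.30, adjusted p = 0.291) and 1.79 without mouse 57. Col18a1, the multiplexin that carries endostatin, measured 1.53, 6.92, 1.78 and 2.28 CPM against 364, 8.14, 4.44 and 2.31 CPM. Its E-cadLO value was the higher in all 4 mice, but by a log2 ratio of 0.01 in mouse 70, and the fold change of 4.92 (SE 1.64, adjusted p = 0.298) became 0.42 without mouse 57. Col7a1, the anchoring fibril chain under epithelia, measured 0.488, 3.23, 1.19 and 1.67 CPM in E-cadHI cells and 35.9, 4.77, 3.16 and 1.75 CPM in E-cadLO cells. Its log2 fold change was 2.79 by edgeR, 0.65 without mouse 57 and 0.95 without the E-cadLO library of that mouse. Col12a1, a FACIT chain of fibrous tissue, was even in E-cadHI cells at 2.89 ± 0.139 CPM (SD, n = 4) and measured 28.6, 3.61, 12.7 and 2.66 CPM in E-cadLO cells.

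Some markers of fibroblasts were also high in that library. The summed level of the 8 fibroblast markers was 163 CPM there, 12.3 to 27.2 CPM in the other E-cadLO libraries and 1.25 to 20.3 CPM in E-cadHI libraries. Within each mouse the E-cadLO sum was the higher, also in mice 58 (7.45 and 17.6 CPM), 67 (2.53 and 12.3 CPM) and 70 (20.3 and 27.2 CPM). Most of the 163 CPM came from 2 genes. Dpt, a dermal matrix protein of fibroblasts, measured 112 CPM there and 0 in the other 7 libraries, and Dcn measured 33.7 CPM there and at most 9.13 CPM elsewhere. Of the other 6 markers, Lum (1.86 CPM) and Fap (1.56 CPM) were highest there at a low level, and Pdgfra (11.3 CPM), Fbln1 (1.11 CPM), Pi16 (1.11 CPM) and Thy1 (0.0743 CPM) were higher in some other E-cadLO library, at 12.2, 2.1, 1.21 and 3.84 CPM. Pdgfrb, the receptor carried by mural cells and fibroblasts, comes from the mural list and measured 147 CPM there and at most 5.66 CPM elsewhere. The other mural markers were not highest in that library, with Rgs5 at 18.3 CPM against 135 CPM in E-cadLO cells of mouse 70, Myh11 at 0, and Abcc9 (5.87 CPM) and Notch3 (1.78 CPM) at their lowest of the 8 libraries. None of the 8 fibroblast markers was at 0 in the E-cadLO library of mouse 57, and 6 of the 8 were at 0 in the E-cadHI library of the same mouse. The 8 epithelial markers summed to 5463 CPM in the former, the lowest of the 8 libraries, with Epcam at 290 CPM against 792 to 1344 CPM elsewhere, and the part of other cell types in these collagen values was not tested.

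**Figure D4:**
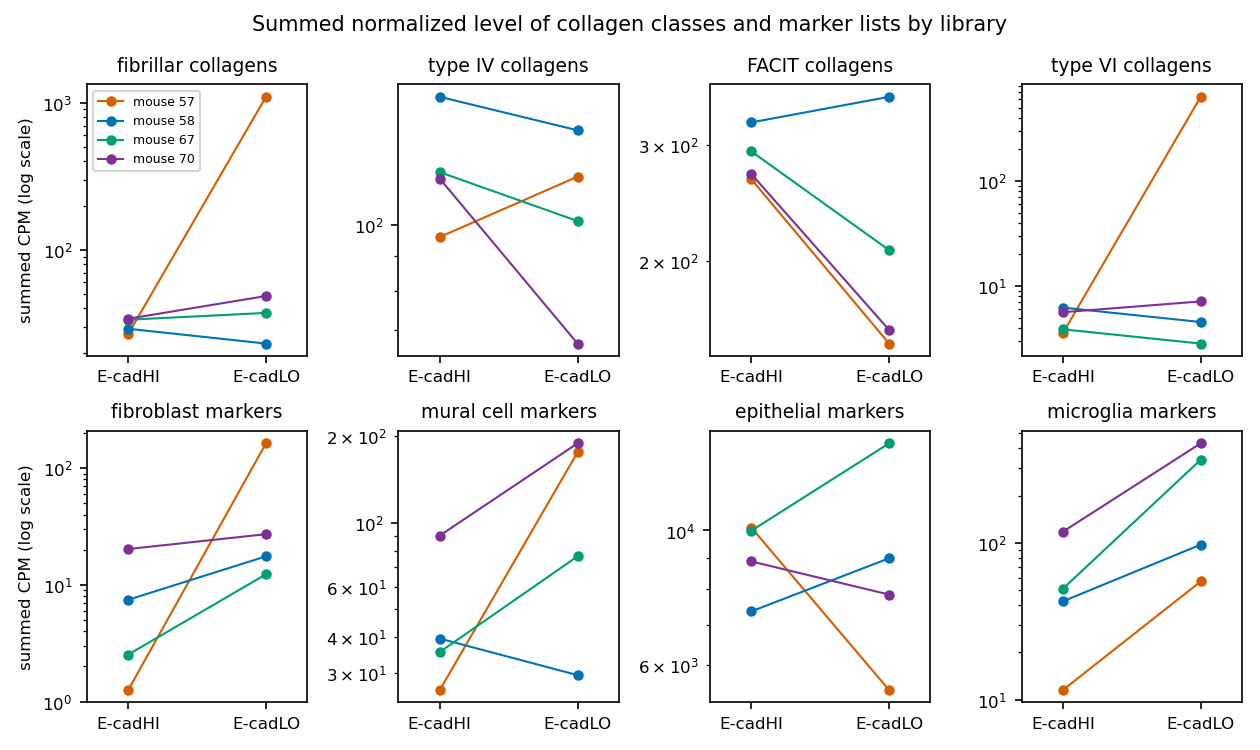
Summed CPM (log axes, each panel with its own range) of 4 collagen classes in the upper row and 4 marker lists in the lower row, in the E-cadHI and E-cadLO library of each mouse. Fibrillar collagens, type VI collagens and fibroblast markers are highest in the E-cadLO library of mouse 57 (1097, 633 and 163 CPM), whereas the FACIT sum is lowest there, at 150 CPM.

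Col9a1 of type IX collagen had lower levels in each E-cadLO library than in any E-cadHI library, although it did not pass edgeR's test, and Col9a3 did not follow it. The 3 chains of type IX collagen, Col9a1, Col9a2 and Col9a3, form a heterotrimer that coats fibrils in cartilage and the eye. Col9a1 (chr1:24177610-24252684, ENSMUSG00000026147) measured 162, 154, 168 and 137 CPM in E-cadHI cells of mice 57, 58, 67 and 70, and 19.0, 128, 96.6 and 70.9 CPM in E-cadLO cells. Every E-cadLO library lay below every E-cadHI library, which held for 1 of the 25 tested chains and 4.2% of all tested genes. The E-cadHI values were close together at 155 ± 13.4 CPM (SD, n = 4). The log2 ratios were -3.05, -0.26, -0.80 and -0.95, and the ratio nearest to 0 was that of mouse 58, whose E-cadLO library held the most Cdh1.

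The fitted log2 fold change of Col9a1 was -0.98 (SE 0.45, edgeR adjusted p = 0.366) and -1.22 with the mouse block (adjusted p = 0.199). It was -0.65 without mouse 57 and -1.32 without mouse 58. Col9a2 measured 3.14, 4.69, 0.966 and 1.93 CPM against 1.11, 2.67, 0.538 and 0.978 CPM, lower in all 4 mice (log2 fold change -1.03, SE 0.67, adjusted p = 0.483), with groups that overlapped. Col9a3 measured 48.1, 73.8, 57.3 and 57.7 CPM against 24.7, 106, 46.9 and 37.3 CPM, lower in 3 mice and higher in mouse 58 (log2 fold change -0.14, SE 0.40, adjusted p = 0.878). Without the E-cadLO library of mouse 57 this value was 0.084, and without that of mouse 58 it was -0.70. Exons of Col9a3 overlap those of Tcfl5 on the opposite strand, and whether counting used strand is not given in the sources used here.

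The 3 type IX chains were not present in equal amounts. The ratio of Col9a1 to Col9a3 per kb was 2.55, 1.58, 2.23 and 1.81 in E-cadHI cells and 0.586, 0.913, 1.57 and 1.44 in E-cadLO cells, so that each E-cadLO ratio lay below each E-cadHI ratio. Col9a2 reached 0.0210 to 0.0812 of the Col9a3 level per kb in the 7 libraries with enough counts for the ratio. The ordering of the 3 chains was thus the same in the 4 E-cadHI libraries, with Col9a1 first and Col9a2 far behind.

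Col16a1, a FACIT chain of skin and muscle matrix, measured 47.1, 82.2, 61.4 and 64.8 CPM in E-cadHI cells and 56.8, 107, 45.6 and 38.7 CPM in E-cadLO cells. In E-cadLO cells of mice 57 and 58 the level was the higher and in those of mice 67 and 70 the lower, and its log2 fold change of -0.05 (SE 0.32, adjusted p = 0.954) changed sign in 5 fits that left out a library or a mouse and was -0.43 without the E-cadLO library of mouse 58. Of the remaining FACIT chains, Col14a1 (0.97, SE 0.60) and Col20a1 (1.84, SE 0.96) did not pass the test, with adjusted p values of 0.466 and 0.405. Col19a1 and Col22a1 had at most 6 and 13 counts in any library.

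**Figure D5:**
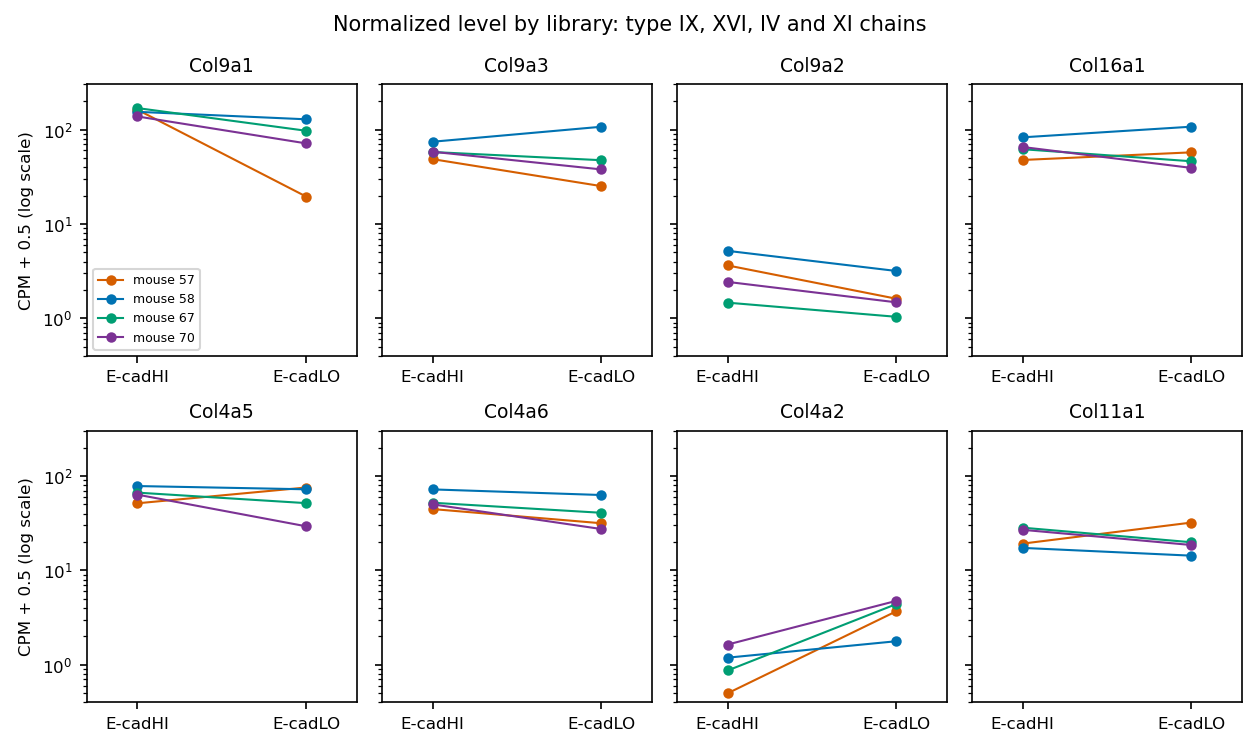
Normalized level (CPM plus 0.5, log axis) of 8 chains of types IX, XVI, IV and XI in the E-cadHI and E-cadLO library of each mouse, with a line joining the 2 libraries of a mouse. Col9a1 slopes down in all 4 mice (from 137 to 168 CPM to 19.0 to 128 CPM), Col4a2 slopes up in all 4, and the lines of the other 6 chains overlap between groups.

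The type IV chains split into a high pair and a low group. Col4a5 and Col4a6, which assemble with each other in epithelial basement membranes, lie head to head on chromosome X, with start sites 1308 bases apart. Col4a5 (chrX:141475385-141689234) measured 51.0, 77.8, 66.2 and 63.0 CPM in E-cadHI cells and 75.1, 71.9, 51.2 and 28.9 CPM in E-cadLO cells. Col4a6 (chrX:141165403-141474076) measured 44.2, 71.7, 51.6 and 49.6 CPM against 31.1, 62.5, 40.3 and 27.0 CPM. Both pairs of groups overlapped, although Col4a6 was lower in E-cadLO cells of all 4 mice.

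The log2 fold change was -0.43 for Col4a6 (SE 0.28, adjusted p = 0.479), or -0.72 without the E-cadLO library of mouse 58, and -0.19 for Col4a5 (SE 0.29, adjusted p = 0.763). With the mouse block edgeR gave -0.48 for Col4a6 (SE 0.18, adjusted p = 0.212) and -0.26 for Col4a5 (SE 0.27, adjusted p = 0.603). The ratio of Col4a5 to Col4a6 per kb stayed between 1.27 and 1.52 in 7 libraries and was 2.86 in the E-cadLO library of mouse 57. In that library alone Col4a5 was higher and Col4a6 lower than in the E-cadHI library of the same mouse.

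Col4a1 and Col4a2, the chains of the basement membrane of vessels and of most other tissues, were low in E-cadHI cells, with 1 to 28 counts of Col4a1 and 0 to 13 counts of Col4a2. Col4a2 (chr8:11312805-11449287) measured 0, 0.692, 0.372 and 1.14 CPM in E-cadHI cells and 3.19, 1.28, 3.90 and 4.26 CPM in E-cadLO cells, the latter from 11 to 61 counts. Every E-cadLO library lay above every E-cadHI library, which held for 2 of the 25 tested chains and 3.9% of all tested genes. Col4a2 passed the count filter mainly through E-cadLO cells, so this separation supports no call. Its log2 fold change was 2.52 (SE 0.93, edgeR adjusted p = 0.308), 2.76 with the mouse block (adjusted p = 0.196), 2.08 without mouse 57 and 2.93 without mouse 58.

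Col4a1 measured 0.0697, 1.08, 0.520 and 2.46 CPM against 4.75, 1.05, 1.41 and 4.82 CPM, higher in mice 57, 67 and 70 and even in mouse 58 (log2 ratio -0.03). Its log2 fold change of 1.55 (SE 0.92, adjusted p = 0.450) did not pass the test. Beside these values, the 8 endothelial markers summed to 41.7 to 76.6 CPM in E-cadHI libraries and 57.8 to 103 CPM in E-cadLO libraries, and the 8 mural markers to 26.2 to 90.2 CPM and 29.5 to 189 CPM. The endothelial sum of E-cadLO cells was highest in mouse 70 and lowest in mouse 57, whose Col4a1 level was nearly that of mouse 70. Most of each of these sums was Flt1, at 33.95, 73.74, 82.73 and 58.71 CPM in mice 57, 58, 67 and 70. The low rank of mouse 57 thus followed Flt1. Most of each E-cadHI sum was also Flt1, at 40.42, 38.96, 71.72 and 47.59 CPM. Within each mouse the endothelial sum was higher in E-cadLO cells. The 6 endothelial markers tested all had a log2 fold change above 0 (background 55.1%), with a median of 1.34 that was 1.19 without mouse 57. Among E-cadLO cells Tek (12.04 CPM) and Cdh5 (5.795 CPM) were highest in mouse 57, and Pecam1, Cldn5, Kdr, Emcn and Esam in mouse 70. The part of vessel cells was not tested.

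Col4a4, a chain of specialized basement membranes such as that of the kidney, measured 0.836, 2.69, 0.892 and 0.702 CPM against 3.34, 0.930, 3.70 and 1.89 CPM, lower in mouse 58 and higher in the other 3 mice. Col4a3, its neighbor on chromosome 1, had at most 14 counts and was not tested. The median log2 fold change of the 5 type IV chains tested was 0.95, and it was 0.59 without mouse 57 and 1.88 without mouse 58. The summed type IV level was 96.0, 155, 120 and 117 CPM in E-cadHI cells and 118, 138, 101 and 66.9 CPM in E-cadLO cells, higher in mouse 57 and lower in the other 3.

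Sequences upstream of 5 chains are shown because these chains carry the patterns above: Col9a1 as the tested chain whose E-cadLO libraries all lay below the E-cadHI libraries, the head-to-head pair Col4a5 and Col4a6, and Col3a1 and Col8a1 as chains of the mouse 57 library. RefSeq windows of 250 bases before the start (GRCm38.p6) were found for 35 of the 44 chains, in 38 windows. Each is printed 5′ to 3′ on the strand of its gene, and capitals mark matches on either strand to the letters of a TATA box, a CCAAT box, a GC box or an E-box, which are spelled out after the sequences. They lie at chr1:24177360-24177609 (Col9a1, plus strand), chrX:141475169-141475384 (Col4a5, plus strand, 216 bases kept upstream of its annotated start), chrX:141474077-141474326 (Col4a6, minus strand), chr1:45311288-45311537 (Col3a1, plus strand) and chr16:57754738-57754987 (Col8a1, minus strand).
Col9a1: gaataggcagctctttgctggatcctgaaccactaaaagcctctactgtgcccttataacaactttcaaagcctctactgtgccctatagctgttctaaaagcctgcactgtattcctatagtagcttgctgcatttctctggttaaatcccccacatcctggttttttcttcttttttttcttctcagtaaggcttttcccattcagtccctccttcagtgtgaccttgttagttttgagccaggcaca
Col4a5: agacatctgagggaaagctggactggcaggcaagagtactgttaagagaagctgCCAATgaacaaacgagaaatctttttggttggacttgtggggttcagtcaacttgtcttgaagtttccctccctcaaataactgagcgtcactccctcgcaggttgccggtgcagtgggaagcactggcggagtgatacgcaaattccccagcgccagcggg
Col4a6: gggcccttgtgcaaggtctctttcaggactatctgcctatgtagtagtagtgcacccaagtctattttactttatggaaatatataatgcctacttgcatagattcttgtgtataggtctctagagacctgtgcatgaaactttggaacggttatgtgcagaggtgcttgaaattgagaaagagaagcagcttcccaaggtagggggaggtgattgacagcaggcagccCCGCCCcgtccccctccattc
Col3a1: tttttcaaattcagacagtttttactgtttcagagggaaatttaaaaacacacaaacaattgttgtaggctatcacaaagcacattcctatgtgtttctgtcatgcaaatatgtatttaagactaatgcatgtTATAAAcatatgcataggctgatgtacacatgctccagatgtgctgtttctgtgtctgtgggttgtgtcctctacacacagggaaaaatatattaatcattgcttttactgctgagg
Col8a1: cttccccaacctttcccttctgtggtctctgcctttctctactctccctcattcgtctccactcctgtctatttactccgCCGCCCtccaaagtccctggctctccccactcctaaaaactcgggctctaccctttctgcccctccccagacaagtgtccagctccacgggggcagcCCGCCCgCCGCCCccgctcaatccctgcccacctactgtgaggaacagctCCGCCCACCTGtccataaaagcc
The printed Col9a1 window held none of the 4 motifs, whereas a second Col9a1 window, at chr1:24194953-24195202, held a CCAAT box. That of Col4a5 held a CCAAT box in the bases shown and a GC box in the 34 bases left out, which is counted below, and that of Col4a6 a GC box. That of Col3a1 held a TATA box, and that of Col8a1 several GC boxes, the one nearest the start overlapping an E-box. Over the 38 collagen windows the share with a GC box (GGGCGG) was 57.9%, against 32.7% of 32851 windows of all genes. The shares were 13.2% and 12.4% for the TATA box (TATAAA), 34.2% and 33.9% for the CCAAT box (CCAAT), and 10.5% and 17.2% for the E-box (CACCTG). A match of letters is a description of the window and not a site of binding.

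The remaining chains of the other class were sparse. Col23a1 and Col25a1, which span the plasma membrane, had log2 fold changes of 0.33 (SE 1.33) and 0.99 (SE 0.83), with adjusted p values of 0.916 and 0.567. Col28a1 was not tested, but had 5, 9, 6 and 3 counts in E-cadHI cells and 0, 0, 0 and 1 in E-cadLO cells, so that its groups did not overlap. Col8a2 reached 9.66 CPM in the E-cadLO library of mouse 57 and at most 1.05 CPM elsewhere. Col6a5, Col6a6, Col10a1, Col13a1, Col15a1, Col17a1 and Col26a1 had at most 31 counts in any library and no group that stood apart from the other. Over the 14 other chains tested the median log2 fold change was 0.98, and 0.24 without mouse 57.

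Genes that make, process or bind collagen were listed as 70 partners, of which 53 were tested. By edgeR 0 were called higher and 0 lower, with and without the mouse block, and at an unadjusted p under 0.05 there were 10 higher and 1 lower (background 8.16% and 5.81%). Their median log2 fold change was 0.63, and 0.11 without mouse 57. DESeq2 called 2 of 52 partners higher (background 2.47%), and 9 of 61 with the block (background 6.72%). With the block but without mouse 57, edgeR called 1 of 54 (Sparc, background 3.06%). Without mouse 57 the DESeq2 counts were 0 and 3, and their backgrounds were not computed.

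Of the 20 genes of collagen biosynthesis and folding, 18 were tested and 15 had a log2 fold change above 0, where 55.1% of all genes did. Their median was 0.53, and 0.03 without mouse 57. The largest were those of Fkbp10 (3.22, SE 1.09), a chaperone of procollagen, Sparc (2.74, SE 1.51), a collagen-binding matricellular protein, P4ha3 (2.08, SE 1.02), a prolyl 4-hydroxylase subunit, and P3h1 (1.76, SE 0.99), a prolyl 3-hydroxylase, with edgeR adjusted p values of 0.298 to 0.431. Without mouse 57 the value was 0.85 for Fkbp10 and -0.65 for P3h1. Sparc measured 3.83, 26.6, 11.6 and 360 CPM in E-cadHI cells and 1379, 54.3, 59.0 and 1192 CPM in E-cadLO cells, higher in each mouse. P4ha2, another prolyl 4-hydroxylase subunit, was singled out after its values were seen, since it had the smallest adjusted p of all partners with the block (0.0831). It measured 23.8, 26.1, 25.9 and 21.9 CPM in E-cadHI cells and 83.1, 38.5, 77.6 and 39.5 CPM in E-cadLO cells, without overlap (log2 fold change 1.29, SE 0.28, adjusted p = 0.251). Its log2 fold change was 1.05 without mouse 57. The enzyme subunit it pairs with, P4hb, measured 2569 to 2930 CPM and 1787 to 2643 CPM. Of the 18 genes tested in this list, P4ha2 alone was higher without overlap (background 3.9%). Ppib alone was lower without overlap (background 4.2%), at 93.4 to 125 CPM in E-cadHI and 71.3 to 90.2 CPM in E-cadLO cells.

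Among the 15 genes of collagen processing and cross-linking, 8 were tested and 6 had a log2 fold change above 0 (background 55.1%), with a median of 1.60 that was 0.04 without mouse 57. Pcolce, the enhancer of procollagen C-proteinase, measured 641 CPM in the E-cadLO library of mouse 57 and 0.673 to 3.56 CPM in the other 7. Loxl3, a lysyl oxidase, measured 152 CPM there and at most 4.68 CPM elsewhere, and Bmp1, the proteinase itself, 135 CPM there and 12.5 to 33.0 CPM elsewhere. Adamts2, the procollagen N-proteinase, measured 9.81 CPM there, 3.29 CPM in E-cadLO cells of mouse 70 and at most 0.808 CPM elsewhere. The fold change of Pcolce, 6.67 (SE 2.15, adjusted p = 0.298), was 0.11 without mouse 57, whereas that of Adamts2, 3.87 (SE 1.42, adjusted p = 0.307), was 2.11. Loxl4 was the only tested gene of this list without overlap, and it was lower in E-cadLO cells (background 4.2%).

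The 5 proteoglycans tested of 9 all had log2 fold changes above 0 (background 55.1%), with a median of 2.28 that was 0.48 without mouse 57. They were led by Ogn (5.44, SE 1.88), Aspn (2.91, SE 1.42), Bgn (2.28, SE 1.14) and Dcn (2.24, SE 1.29), small leucine-rich proteoglycans that bind fibrils. None passed the test (adjusted p of 0.301 to 0.440), and without mouse 57 the 4 values were 0.82, 0.04, 1.42 and 0.48. Among 11 collagen receptors, 9 were tested and 6 had a log2 fold change above 0 (background 55.1%), with a median of 0.23 that was 0.21 without mouse 57. Ddr2, a receptor tyrosine kinase for fibrillar collagen, measured 24.8, 27.1, 12.9 and 17.5 CPM against 101, 48.0, 27.1 and 24.2 CPM, higher in each mouse (log2 fold change 1.29, SE 0.47, adjusted p = 0.305). Mrc2, the collagen uptake receptor, gave 3.86 (SE 1.44), the integrin Itga2 0.86 (SE 0.38) and the inhibitory receptor Lair1 1.32 (SE 1.27), with adjusted p values of 0.311, 0.358 and 0.613, and Mrc2 gave 1.04 without mouse 57. Itga2 was the only tested receptor without overlap, higher in E-cadLO cells (background 3.9%).

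Of the 15 basement membrane partners, 13 were tested and 10 had a log2 fold change above 0 (background 55.1%), with a median of 0.54 that was 0.12 without mouse 57. Nid1, which bridges laminin and type IV collagen, measured 0.627, 1.23, 0.520 and 1.14 CPM in E-cadHI cells and 40.9, 2.21, 2.56 and 2.1 CPM in E-cadLO cells. Its groups did not overlap, which held for no other tested gene of this list (background 3.9% higher and 4.2% lower). Its log2 fold change was 3.75 (SE 1.11, adjusted p = 0.282) and 1.23 without mouse 57. The laminin chains Lama2 (2.40, SE 1.24), Lama3 (1.78, SE 1.01) and Lamb1 (1.43, SE 0.78) had adjusted p values of 0.403 to 0.435, and Lamb1 turned to -0.42 without mouse 57.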

How the data were processed

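The 8 libraries hold mRNA of E-cadHI and E-cadLO cells of 4 mice. The authors mapped 65-base single reads with Hisat 2.1.0 to GRCm38 and deposited whole-number counts per gene without normalization. Their methods name Icount as the counter and the submitters' processing notes HTSeq, and the use of strand or of reads that match several genes is not given in the sources used here. All 8 columns were used, and 365 entries without an identifier (0.0636% to 0.0954% of counts) were left out. The floor covers counting error only, whereas each SE and SD also includes variation between libraries.

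Counts were scaled by TMM, filtered by filterByExpr with the group and tested with glmQLFTest of edgeR 4.0.16 (R 4.3.3) in all 8 libraries. P values of 13598 genes were adjusted by Benjamini-Hochberg, with a threshold of 0.05. The main fit had no mouse term, since the study's methods name DESeq2 and no block. Each edgeR SE and adjusted p given without naming the block comes from this fit, which leaves out that 2 libraries share a mouse. Alternatives were the mouse as a replicate block, DESeq2 1.42.0, its size factors, other count filters and each library or mouse left out. The labels give both libraries of an animal the same number, and the deviations of the 4 same-mouse pairs from their group means correlated at 0.275 to 0.698, against at most 0.153 for the 12 other pairs. Exon lengths and overlaps came from GENCODE M21 and windows from RefSeq. The edgeR and DESeq2 fits, with and without the block, were tested on simulated counts that held no mouse effect, and the other steps were not. Members and lists were chosen with earlier results of these data known. Values in every library were given for the 3 chains with the most counts in each class and for called chains, and other chains given so were chosen after their values were seen. For each partner list, the 4 tested genes with the largest absolute log2 fold change were named.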

Additional observations from a re-analysis of the deposited data

Results flagged for a closer look

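The values in 75 groups of 4 libraries (chains with enough counts, and summed classes) were examined for 1 library far from its group by Dixon's criterion, and 19 stood out. Chance would give 3.75 (about 1 in 20 groups) if the values were normal and the groups independent. Some of these CPM lie near the floor and the summed classes hold the same chains, so that number is only a guide. In 14 of the 19 groups the library was E-cadLO of mouse 57, each time high. Its CPM were 497 for Col1a1, 493 for Col6a1, 364 for Col18a1, 311 for Col1a2, 239 for Col8a1, 180 for Col3a1, 133 for Col6a2, 40.8 for Col5a1, 35.9 for Col7a1, 14.6 for Col5a3, 9.66 for Col8a2 and 3.72 for Col2a1, with summed levels of 1097 for the fibrillar and 1439 for the other chains. The 5 remaining groups had a high E-cadHI library of mouse 58, at 6.92 CPM for Col18a1, 2.69 for Col4a4, 1.69 for Col5a1, 1.46 for Col17a1 and 1.23 for Col6a6. The cause was not tested in either library.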

How the results depend on the processing

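The count of collagen chains called higher was 0 and became 2 with DESeq2 and 2 with DESeq2 and the replicate block, and that of chains called lower was 0 and became 1 with the latter. The edgeR alternatives to these 2 counts (with the replicate block, with DESeq2 size factors, with other count filters, and with each library or mouse left out) gave 0 and 0. Partner genes called higher went from 0 to 2 with DESeq2 (background 2.47%) and 9 with DESeq2 and the block (background 6.72%). In edgeR with the block without mouse 57 (chosen after seeing the data) the count was 1 (Sparc, background 3.06%). DESeq2 with each mouse left out was also chosen after seeing the data. Without mice 57, 58, 67 and 70 it called 0, 4, 0 and 5 chains higher and 0 lower, and with the block 0, 4, 0 and 3 higher and 1, 1, 0 and 0 lower. For partner genes it called 0, 5, 0 and 3 higher, and with the block 3, 10, 1 and 8. The share of all genes called in these DESeq2 fits was not computed, so these counts support no statement about chains or partners. The fibrillar median log2 fold change ranged from 0.96 (without mouse 67, 5 chains tested) to 3.94 over the fits that left out a library or mouse. The type IV median ranged from 0.57 to 1.88 over those fits, and was -0.27 when 10 counts were required in every library, which left 2 chains. With that filter the median of the other chains was -0.01, over 7 chains.

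Among single chains, 5 with small log2 fold changes changed sign when a library or mouse was left out. Their ranges were -0.49 to 0.069 for Col11a1, -0.43 to 0.14 for Col16a1, -0.81 to 1.13 for Col23a1, -0.46 to 0.052 for Col4a5 and -0.70 to 0.084 for Col9a3. The causes were not tested.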
